A study of Mus musculus with 2 samples.

Results

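CD8 T cells in the islets of wild-type mice were split by whether their droplet held at least 1 transcript of *Tnfrsf9*, the gene of CD137, and the 2 sets were compared. The cells were chosen by their counts. In the wild-type library, a barcode was kept if it had between 200 and 5000 genes and mitochondrial transcripts made up no more than 20% of its total. CD8 T cells were those with 2 or more unique transcripts (UMIs) of *Cd8a* and *Cd8b1* together, no UMI of *Cd4* or *Foxp3*, and fewer than 3 UMIs of the proliferation genes *Mki67*, *Top2a*, *Birc5*, *Ube2c* and *Cdk1* together. This gave 709 cells of 2804 barcodes in the wild-type library and 5795 in the whole series, of which 147 were *Tnfrsf9*-positive and 562 were negative. The split was repeated in the 445 of these cells with 4 or more UMIs of *Ccl5*, a chemokine of antigen-experienced CD8 T cells, a limit that leaves out every cell without *Ccl5*.

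The study asked how loss of CD137 changes T cells in autoimmune diabetes of NOD mice. It has 1 library of NOD.*Foxp3*-EGFP (wildtype) mice and 1 of NOD.*Tnfrsf9*-/-.*Foxp3*-EGFP (CD137 knockout) mice. Each library was made from the pooled islets of 6 females of 9 to 10 wk, and all mice of both groups carry the *Foxp3*-EGFP reporter. CD45.1+ CD8+ T cells and GFP+ CD4+ regulatory T cells (Tregs) were sorted, with other lineages gated out of the CD8 T cells, and sequenced together. Neither genotype has a replicate library, so no test was possible. The intervals below are 95% intervals for counting error only, they do not cover differences between mice, and a gene is called higher or lower only when the ratio reached 1.5-fold among genes with at least 100 UMIs in the 2 sets together.

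CD137 (4-1BB) is a costimulatory receptor of the TNF receptor superfamily that appears on T cells after their antigen receptor is engaged. Its ligand, CD137L, sits on antigen-presenting cells, and the receptor recruits TRAF adaptor proteins that activate NF-κB and favor survival and growth of CD8 T cells. Since the receptor is induced by antigen and fades again, it is widely used to mark T cells that met antigen recently. In chronically stimulated CD8 T cells it occurs together with inhibitory receptors such as PD-1 and TIM-3. NOD mice develop type 1 diabetes because β-cell autoreactive T cells infiltrate the islets.

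*Tnfrsf9* (ENSMUSG00000028965) lies on the plus strand of chromosome 4, chr4:150914562-150946102 in GRCm38. RefSeq (GRCm38.p6, the C57BL/6J reference, whereas the mice were NOD) lists 2 starts for it. The window from 250 bases before to 50 bases after the second start, chr4:150927749-150928048, plus strand, is shown because this gene splits the cells and the window holds both motifs named next. Capitals mark a match to GGGA, any 2 bases and TCCC, an NF-κB-like motif, at −42 to −33 from the start and a match to TGANTCA, an AP-1-like motif, at −15 to −9.
Tnfrsf9: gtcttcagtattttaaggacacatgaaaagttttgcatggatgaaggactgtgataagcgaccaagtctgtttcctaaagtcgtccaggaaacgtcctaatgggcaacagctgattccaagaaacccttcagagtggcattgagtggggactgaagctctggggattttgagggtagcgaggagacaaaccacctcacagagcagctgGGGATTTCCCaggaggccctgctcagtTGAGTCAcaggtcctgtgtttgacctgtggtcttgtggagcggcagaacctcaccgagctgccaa
On both strands, the NF-κB-like motif was found in 0.664% of 32851 promoter windows of this length and the AP-1-like motif in 7.81%. A match of letters is not a measured binding site.

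The wild-type library held 19904506 UMIs with a median of 5075.5 per barcode, and the knockout library held 19639995 with a median of 4935. After the limits on genes and mitochondrial transcripts 2714 wild-type and 2915 knockout cells remained, and 16 barcodes occurred in both libraries. CD8 T cells were the cells the rule named: *Cd3d*, an antigen receptor subunit, stood at 1218 CPM, its share of all UMIs of the set on the usual scale, in positive cells and 1199 in negative cells after matching. The erythroid markers, *Ncr1* and *Klrb1c* of natural killer cells, *Ms4a1* of B cells and *Csf1r* and *Itgam* of myeloid cells were all at 0 in the matched cells. Other members of the same lists were not: the 10 myeloid markers had 308 UMIs in 104 positive and 419 in 97 negative cells, with up to 81 in a cell, and the B cell markers had 25 UMIs in 4 and 77 in 10 cells, with up to 45 in a cell. Of the 709 CD8 T cells, 8 had 10 or more UMIs of the MHC class II genes *Cd74*, *H2-Aa*, *H2-Ab1* and *H2-Eb1* together, which T cells of mice barely express. Matched cells included 3 of them among positive and 3 among negative cells, and results that rest on them are given without them. Of the myeloid markers, *Cst3* had 163 and 179 UMIs in the positive and negative cells paired without them. *Lyz2* had 1 and 1 there and *Tyrobp* 0 and 0.

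*Tnfrsf9* was found in 147 of 709 CD8 T cells, 20.7% (17.8–23.9), at a pooled level of 104 CPM. Among these 147 cells the median was 2 UMIs and the highest cell had 22. The count was 1 in 66 cells (44.9%), 2 to 4 in 55 cells and 5 or more in 26 cells, and the 10 highest cells held 28.9% of all 454 *Tnfrsf9* UMIs. A cell without a UMI may still have expressed the gene, so the negative cells are those in which it was not detected at their depth. By *Ccl5*, 16 of 151 cells without it were positive (10.6%, 6.18–16.6). The share was 16.8% (19 of 113) in cells with 1 to 3 *Ccl5* UMIs and 25.2% (112 of 445, 21.2–29.5) in those with 4 or more. Cells without *Ccl5* that carried 2 or more UMIs of 3 naive genes together, *Lef1* and *Ccr7* among them, were taken as the background, since naive CD8 T cells should lack CD137. They were positive in 8 of 122 cells (6.56%, 2.87–12.5) at a median of 5042.5 UMIs, and a share at or below this one is not read as expression.

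Depth moved these shares. With every cell thinned to 2000 UMIs, and 16 shallower CD8 T cells left out, the share was 11.1% (8.87–13.7) in all CD8 T cells, 13.1% (10.1–16.7) with *Ccl5* of 4 or more and 2.46% (0.510–7.02) in the cells with naive genes. The CD8 T cells in proliferation that the rule leaves out were positive in 93 of 182 cells (51.1%) at a median of 13940 UMIs, but in 14.4% after thinning, and their pooled level of 111 CPM was near the 104 CPM of the other CD8 T cells. Tregs of the same library, defined by a UMI of *Cd4* or *Foxp3* and none of *Cd8a* or *Cd8b1*, with the same limit on proliferation genes, stood well above all of them at 375 CPM and 51.9% (35.7% after thinning). Cells just inside and outside the rule are given once. Positive were 7 of 54 cells with exactly 2 *Cd8a* and *Cd8b1* UMIs and 29 of 78 (37.2%) with 1. The share was 22.2% (8 of 36) with 2 proliferation UMIs and 40.9% (9 of 22) with 3, and 66.7% (4 of 6) with 4 *Ccl5* UMIs and 8.33% (1 of 12) with 3. It was 52.6% (10 of 19) in cells with 1 *Cd4* or *Foxp3* UMI, which the rule leaves out.

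**Figure D1:**
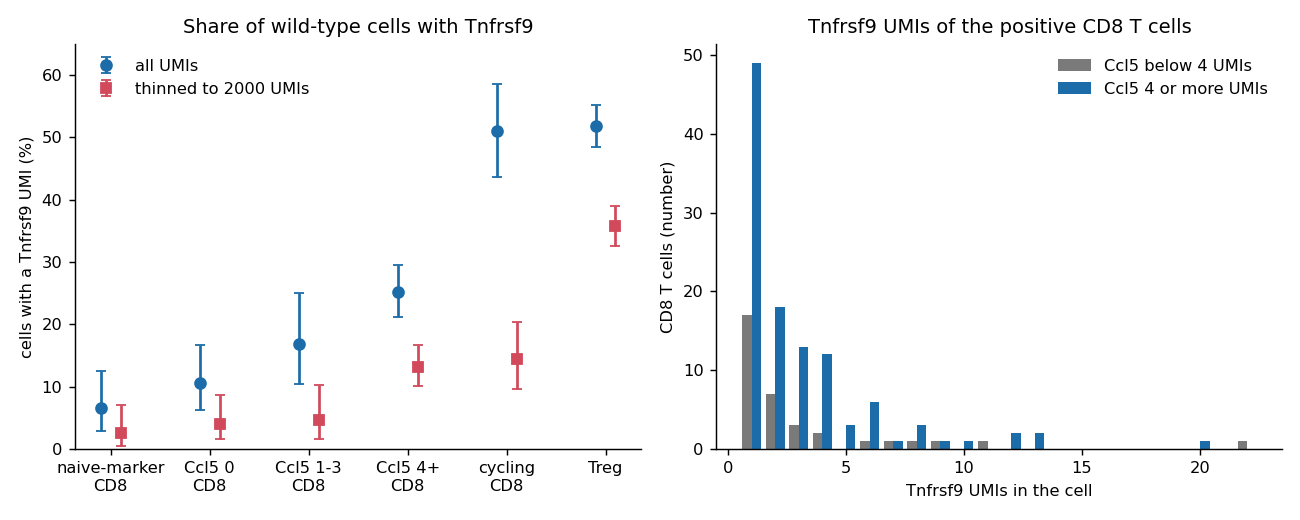
Left, share of wild-type cells with a *Tnfrsf9* UMI (percent, with exact 95% binomial intervals) in CD8 T cells by *Ccl5* UMIs, in cells with naive genes, in proliferating CD8 T cells and in Tregs, with all UMIs (circles) and after thinning to 2000 UMIs (squares). Right, number of positive CD8 T cells by their *Tnfrsf9* UMIs, separately by *Ccl5* class. The thinned share is 13.1% in CD8 T cells with 4 or more *Ccl5* UMIs and 35.7% in Tregs, and most positive CD8 T cells hold fewer than 5 UMIs.

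Positive cells were deeper, with a median of 6960 UMIs against 5343.5 in negative cells. Each positive cell was therefore paired with a negative cell of the same total UMIs (within 0.25 on the log2 scale), which gave 142 pairs with medians of 6854.5 and 6857 UMIs. UMIs were then summed over the paired cells of each set. Of 3071 genes with at least 100 UMIs, 196 were 1.5-fold or more higher in positive cells (6.38%) and 136 were lower (4.43%), and the median log2 ratio of all genes was 0.06. In cells with 4 or more *Ccl5* UMIs, 109 pairs were formed with medians of 6945 and 6938 UMIs. Of 2406 genes, 129 were higher (5.36%) and 91 lower (3.78%), with a median of 0.04. Centring the ratios on those medians gave 147 higher and 167 lower genes in all CD8 T cells and 111 and 111 in the *Ccl5* cells. Since these cells are part of all CD8 T cells, the second comparison is not independent of the first. These shares are the background for the lists below in paired cells. After thinning, 163 genes were higher and 151 lower in all CD8 T cells, and 67 and 82 in the *Ccl5* cells. The number of genes with enough UMIs after thinning is not given here. List counts after thinning therefore stand without a share of all genes beside them.

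*Xcl1*, *Ccl3* and *Ccl4*, chemokines that activated CD8 T cells release, and *Rgs16*, a brake on G protein-coupled receptors, were among the 10 highest genes. *Xcl1* (chr1:164931644-164935527, minus strand), which attracts XCR1+ cross-presenting dendritic cells, stood at 2366 CPM (2276–2459) in positive and 333 CPM (299–370) in negative cells, a log2 ratio of 2.83 (2.67–2.99). More positive cells had it, 79 against 55 of 142, and the cells that had it held far more. The 90th percentile was 62 against 7 UMIs per cell and the highest cells held 248 and 36. Among cells with 4 or more *Ccl5* UMIs the ratio was 2.63 (2.44–2.83), and over all alternatives it lay between 2.38 and 3.37 in both comparisons. *Ccl3* (chr11:83647844-83649355) was 908 CPM (852–966) against 254 (224–286), a log2 ratio of 1.84. *Ccl4* (chr11:83662584-83664683) was 2147 CPM (2062–2236) against 742 (692–796), a log2 ratio of 1.53. The sets overlapped for both genes: 33 negative cells held *Ccl3* and 63 held *Ccl4*, against 66 and 96 positive cells. With *Ccl5* of 4 or more, the ratios were 1.18 for *Ccl3* and 1.07 for *Ccl4*. *Ccl4* depended on how depth was handled, since thinning all cells to 2000 UMIs gave 0.71 in all CD8 T cells and 0.30 in the *Ccl5* cells. All 3 of the 8 listed chemokines with enough UMIs were thus higher in both comparisons, beside 6.38% and 5.36% of all genes.

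Among secreted cytokines, *Ifng*, the interferon of CD8 T cells that raises MHC and chemokines in islets, was 212 CPM (185–241) against 89.6 (72.5–110), a log2 ratio of 1.24 (0.89–1.60). A UMI of it was present in 76 positive and 34 negative cells of 142. Its ratio was 0.71 (0.39–1.03) in the *Ccl5* cells, and 0.57 there after thinning. Of the 10 other secreted cytokines listed, 3 had enough UMIs. *Tgfb1*, which restrains T cells, was higher at 223 against 133 CPM, and *Penk*, the proenkephalin gene, at 79.4 against 26.4 CPM, with 28.7% of its UMIs in 1 positive cell. *Il16*, a CD4 ligand, was lower at 64.8 against 108 CPM. Their median was 0.74.

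Inhibitory receptors were mostly higher in positive cells. Of 8 members tested of 17, 5 were higher and 2 were lower, and the median log2 ratio was 0.79. *Havcr2* (TIM-3) had the largest ratio, 1.67 (1.00–2.39), at 72.1 CPM (57.1–89.8) against 22.6 (14.5–33.7), with a UMI in 39 against 14 of 142 cells. *Cd160*, a receptor for HVEM, was 243 against 117 CPM (1.05). *Lag3* (chr6:124904361-124911705), which binds MHC class II, was 764 CPM (714–818) against 437 (398–478), 0.81. *Pdcd1* (chr1:94038305-94052553), the gene of PD-1, was 434 CPM (396–475) against 253 (223–285), 0.78. It was detected in 107 positive and 69 negative cells. *Entpd1* (CD39), an ectonucleotidase, had a ratio of 0.81, and *Ctla4* was 392 against 314 CPM (0.32), short of 1.5-fold. The 2 lower members were *Vsir* (VISTA), found on quiescent T cells, at 73.0 against 112 CPM (−0.62), and *Cd96*, which binds CD155, at 65.7 against 114 CPM (−0.80). Restricted to the *Ccl5* cells, the list kept 2 higher members, *Havcr2* (1.23) and *Cd160* (0.76), the same 2 lower members and a median of 0.42. There *Pdcd1* was 497 against 372 CPM (0.42, 0.20–0.64) and *Lag3* 822 against 562 CPM (0.55, 0.38–0.72), both short of 1.5-fold. Thinning put *Pdcd1* just past it in these cells, at 0.589, with *Entpd1* at 0.595 and *Lag3* at 0.549. Over all alternatives the list median in all CD8 T cells lay between 0.08 and 0.90.

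**Figure D2:**
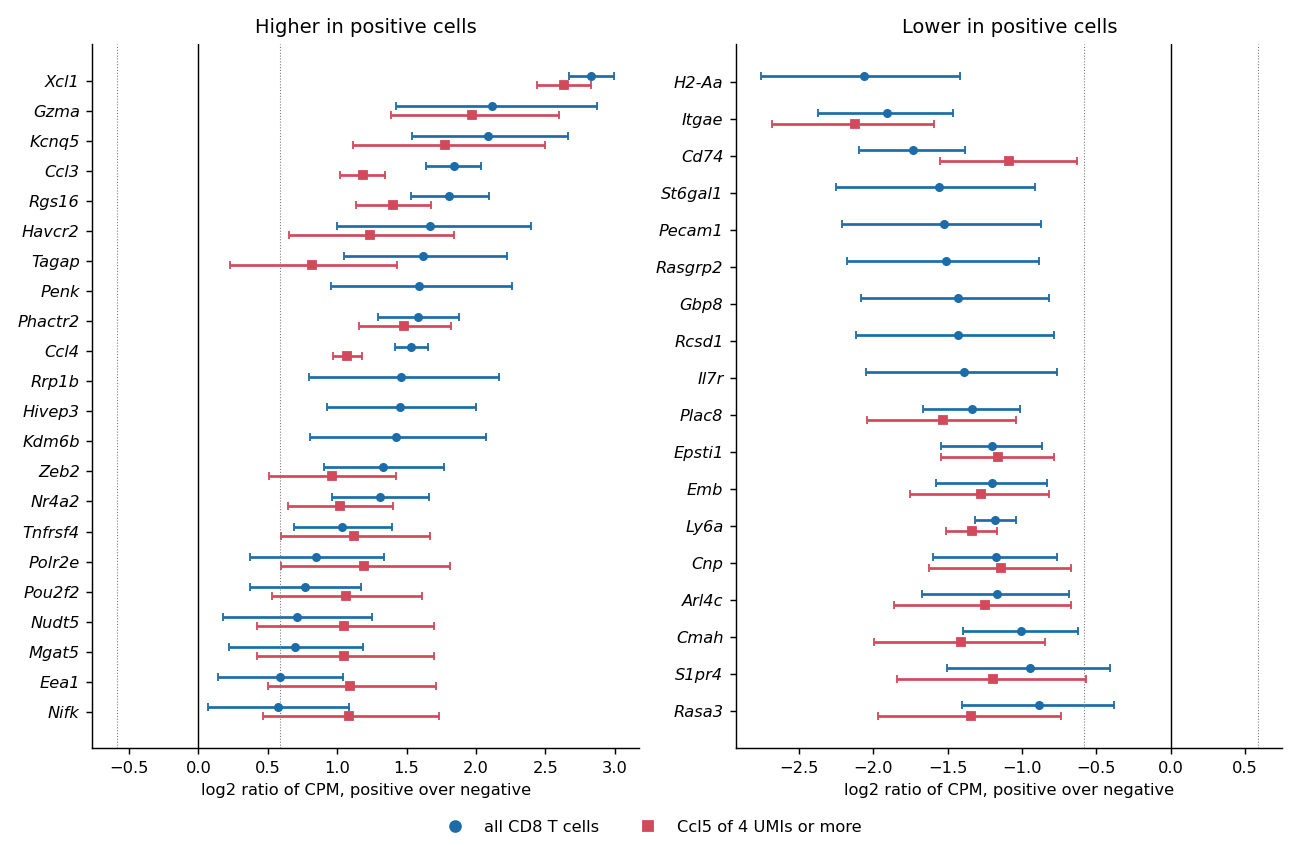
Log2 ratio of CPM, *Tnfrsf9*-positive over negative, for the genes with the highest (left) and lowest (right) ratios in paired wild-type CD8 T cells. Circles are all CD8 T cells, squares those with 4 or more *Ccl5* UMIs, bars are exact 95% counting intervals and dotted lines mark 1.5-fold; genes below 100 UMIs in a comparison have no point. *Xcl1* is the highest gene in both, at 2.83 and 2.63, and *Itgae* is at −1.91 and −2.12.

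Of 10 transcription factors of exhausted and effector cells tested, 5 were higher and none was lower, with a median of 0.49. *Zeb2*, which promotes terminal effector differentiation, was 151 against 60.4 CPM (1.33), and *Rbpj*, the DNA-binding partner of Notch, 212 against 87.7 CPM (1.27). *Ikzf2* (Helios) was 294 against 153 CPM (0.94) and *Ikzf3* (Aiolos) 569 against 354 CPM (0.69). *Tox* (chr4:6686353-6991557), which establishes exhaustion, was 1310 CPM (1243–1380) against 853 (798–910), 0.62, with medians of 9 and 4 UMIs per cell. A UMI of it was found in 132 and 121 of 142 cells. *Eomes* and *Tbx21* (T-bet) had ratios of 0.37 and 0.32. Thinning gave 0.48 for *Tox* and 0.25 for *Ikzf3*, short of 1.5-fold, but 0.69 for *Eomes* and 0.66 for *Tbx21*, past it. Among the *Ccl5* cells 3 of 10 were higher (*Rbpj* 1.01, *Zeb2* 0.96, *Ikzf2* 0.88), *Tox* was 0.50, and the median was 0.30.

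Of 11 genes that the T cell receptor induces, of 21 listed, 4 were higher (*Tagap*, *Nr4a2*, *Nrn1* and *Bhlhe40*) and none lower, with a median of 0.42. *Tagap*, a GTPase-activating protein of activated T cells, was 98.5 against 32.1 CPM (1.62). *Nr4a2*, a nuclear receptor induced by calcium signals, was 222 against 89.6 CPM, 1.31 (0.96–1.66). *Nrn1*, neuritin, was 58.4 against 34.9 CPM (0.74), but −0.32 after thinning. *Egr2* and *Nr4a1*, the closest reporters of recent receptor signaling, had under 100 UMIs. *Egr2* was 46.5 CPM (34.6–61.2) against 12.3 (6.53–21.0), and *Nr4a1* was 51.1 CPM (38.6–66.3) against 17.0 (10.1–26.8). *Irf4*, which scales with receptor signal strength, was 32.8 against 32.1 CPM. *Cd69*, an early activation and retention marker, was −0.30, short of 1.5-fold, and −0.62 after thinning. None of 11 AP-1 and immediate early genes reached 1.5-fold in either direction (median −0.10), nor did any of 10 in the *Ccl5* cells (median −0.27). After thinning 2 of 11 were lower, *Klf6* (−1.29) and *Zfp36* (−1.19), and the median was −0.39. In the *Ccl5* cells 2 of 9 receptor-induced genes were higher, *Nr4a2* (1.02) and *Tagap* (0.82), which thinning brought to 0.34 and 0.52. *Bhlhe40*, a transcription factor of cytokine production, was 0.65 in all CD8 T cells and 0.25 after thinning.

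Within the TNF family, 4 of 8 tested members were higher and 1 was lower, with a median of 0.65. *Tnfrsf4* (OX40), a costimulatory receptor, was 192 CPM (167–219) against 93.4 (75.9–114), a log2 ratio of 1.04 (0.68–1.40). It was detected in 47 positive and 33 negative cells, and 1 negative cell held 24.2% of that set's UMIs. *Tnfrsf1b* (TNFR2) was 113 against 51.9 CPM (1.12), *Fas*, the death receptor, 142 against 80.2 CPM (0.83), and *Tnfsf10* (TRAIL), a death ligand, 68.4 against 40.6 CPM (0.75). *Tnfrsf18* (GITR) was 145 against 100 CPM (0.54) in all CD8 T cells and 127 against 74.9 CPM (0.76) in the *Ccl5* cells. *Cd27* differed by 0.29. *Tnfsf8* (CD30 ligand) was lower at 34.7 against 86.8 CPM (−1.32). With *Ccl5* of 4 or more, 5 of 7 members were higher and none lower (median 0.69), where *Tnfrsf4* was 120 against 55.0 CPM (1.12). After thinning, 2 of 6 members with enough UMIs were higher in all CD8 T cells, *Tnfrsf4* among them, while *Tnfrsf1b* was 0.48. In the thinned *Ccl5* cells 1 of 3 was higher, *Tnfrsf4* at 1.52.

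For genes downstream of these receptors, none of 15 TRAF and NF-κB genes tested of 25 reached 1.5-fold in either direction, and their median was −0.01 (0.04 in 13 genes of the *Ccl5* cells). After thinning 1 of 12 was lower, *Nfkbiz* (−0.89). *Traf1*, the adaptor that CD137 recruits and NF-κB induces, was 130 against 153 CPM (−0.23, −0.56 to 0.10). *Nfkb1* was 158 against 144 CPM (0.13, −0.19 to 0.45), and *Nfkbia*, an NF-κB inhibitor that NF-κB induces, was 264 against 218 CPM (0.27, 0.02–0.53). *Nfkb2* fell short of 100 UMIs, at 49.3 CPM (37.0–64.3) against 29.2 (19.9–41.5). Of 8 members of the BCL2 family and death control tested, 3 were higher and none lower (median 0.18). They were the anti-apoptotic *Bcl2a1d* (226 against 100 CPM, 1.18) and *Bcl2a1b* (379 against 225 CPM, 0.76), near-identical copies between which reads cannot be divided with certainty, and the pro-apoptotic *Bax* (228 against 148 CPM, 0.62, but 0.43 after thinning). *Bcl2* itself was −0.22, and −0.69 after thinning. With *Ccl5* of 4 or more, 1 of 7 was higher, *Bcl2a1d* (0.69), with a median of 0.18.

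Receptors of the killer lectin family, which natural killer cells and effector CD8 T cells share, were higher for all 5 tested of 14, with a median of 0.96 and a range of 0.63 to 1.22. *Klre1* was 267 CPM (238–300) against 115 (95.6–137), 1.22. The inhibitory receptor gene *Klrc1* (NKG2A) was 231 against 117 CPM (0.98), its activating relative *Klrc2* 101 against 51.9 CPM (0.96), their partner *Klrd1* (CD94) 397 against 256 CPM (0.63), and *Klrk1* (NKG2D) 242 against 129 CPM (0.90). *Klrc1* and *Klrc2* are similar in sequence, so their reads may be shared. Among the *Ccl5* cells 4 of 5 were higher and *Klrd1* was 0.42 (median 0.63). After thinning *Klrk1* was 0.55 and *Klrd1* 0.56 in all CD8 T cells, both short of 1.5-fold, which left 3 of 5 higher. Of 9 cytotoxic granule genes tested, 3 were higher and none lower (median 0.44), 1 of them *Ifng*, which the list includes. *Nkg7*, a granule protein, was 3212 against 2363 CPM (0.44). *Gzmb* (granzyme B) was 290 against 176 CPM (0.72), but 1 cell in each set held 39.9% and 50.8% of its UMIs. *Gzma* (granzyme A) was 85.8 against 19.8 CPM (2.11). It was present in 8 positive and 10 negative cells, 1 positive cell held 76.6% of its UMIs, and pairing within 0.1 on the log2 scale gave a ratio of 0.06.

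Biosynthesis genes, which serve ribosome assembly, protein folding and polyamine synthesis in growing T cells, had ratios above 0 for all 19 tested of 20 in the paired cells, with a range of 0.13 to 0.89 and a median of 0.43, and 7 reached 1.5-fold. *Eif5a*, a translation factor that polyamines modify, was 824 CPM (771–879) against 466 (426–509), 0.82 (0.66–0.98). *Odc1*, the first enzyme of polyamine synthesis, was 101 against 54.7 CPM (0.89), and *Nolc1* and *Ncl*, nucleolar proteins, were 0.87 and 0.68. *Hspd1*, a mitochondrial chaperone, was 0.70, *Hspa5*, a chaperone of the endoplasmic reticulum, 0.61, and *Mif* 0.60. All 17 tested in the *Ccl5* cells were above 0 and 4 were higher (*Eif5a* 1.00, *Odc1* 0.85, *Mif* 0.71 and *Hspa5* 0.63), with a median of 0.40. Thinning left 4 of 16 higher in all CD8 T cells (median 0.51) and 4 of 15 in the *Ccl5* cells (median 0.48), without *Odc1*, which was 0.34 and −0.02. The chaperone genes *Hspe1* (−0.37 and −0.43) and *Hsp90aa1* (−0.19 and −0.34) were then below 0. Of 11 glycolysis genes, 1 was higher, *Tpi1* (89.4 against 58.5 CPM, 0.61), and the median was 0.30. The 8 S phase genes tested had a median of 0.01, with *Stmn1* lower (−0.72) but at 0.04 after thinning, when *Mcm6* (0.86) and *Dut* (0.78) were higher.

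**Figure D3:**
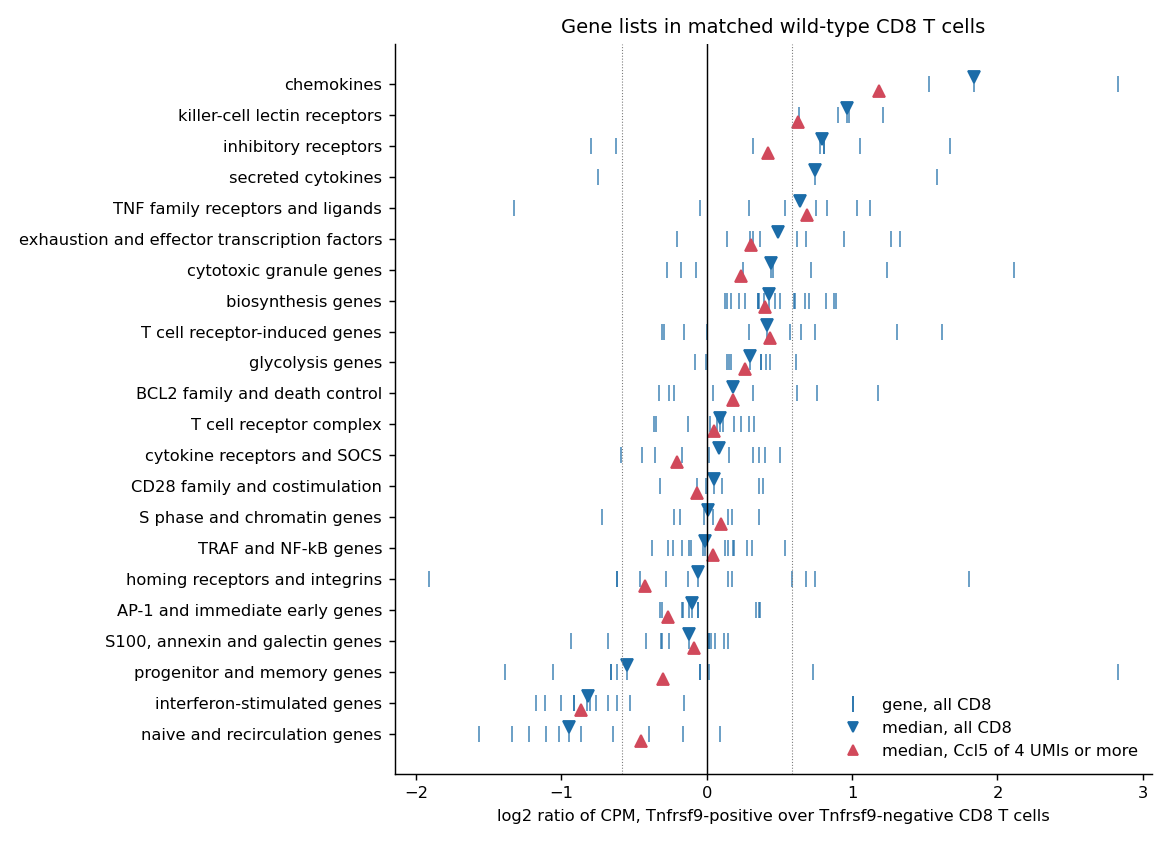
Log2 ratio of CPM, *Tnfrsf9*-positive over negative, by gene list in paired wild-type CD8 T cells. Short bars are genes with at least 100 UMIs and downward triangles the list median in all CD8 T cells, upward triangles the median with 4 or more *Ccl5* UMIs, and dotted lines 1.5-fold. Of the lists that are not markers of other cells, chemokines and killer lectin receptors have the highest medians in all CD8 T cells and naive and interferon-stimulated genes the lowest, at medians of −0.95 and −0.81.

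Other groups had few or no members past 1.5-fold in the paired cells. None of 11 genes of the T cell receptor complex (median 0.09; 0.05 in the *Ccl5* cells) and none of 7 CD28 family genes (0.05 and −0.07) reached 1.5-fold. *Icos*, another costimulatory receptor induced by activation, was 90.3 against 84.0 CPM in paired cells, but 0.67 after thinning, the 1 of 6 CD28 family genes that was then higher. Of 10 cytokine receptor and SOCS genes 1 was lower, *Ifngr1* (85.8 against 129 CPM, −0.59), and the median was 0.08. None of 10 reached 1.5-fold in the *Ccl5* cells (median −0.20). After thinning 1 of 9 was higher and 1 lower in all CD8 T cells (median −0.33), and 1 and 4 of 9 in the *Ccl5* cells. The 13 S100, annexin and galectin genes had a median of −0.12, with *Vim* (vimentin) and *Anxa5* lower. *Vim* was 430 CPM (392–470) against 822 (768–878), −0.94, but −0.26 after thinning. The thinned list had 2 of 12 higher, *Lgals3* (0.92) and *Lgals1* (0.69), none lower and a median of 0.16.

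Genes of naive and recirculating T cells were lower in positive cells for 8 of 11 tested, with none higher and a median of −0.95. *Ccr7*, which guides cells to lymph nodes, was 26.5 against 67.0 CPM (−1.34), *Lef1*, a transcription factor of naive cells, 132 against 309 CPM (−1.22), and *Klf2*, which maintains recirculation, 33.8 against 72.6 CPM (−1.11). Among the 10 lowest genes were also *St6gal1* (24.6 against 72.6 CPM), a sialyltransferase, and *Pecam1* (24.6 against 70.8 CPM), an adhesion molecule that stands among the stromal and endothelial markers. With *Ccl5* of 4 or more, 7 of the list had enough UMIs and 2 were lower, *S1pr4*, a sphingosine phosphate receptor (−1.19), and *Lef1* (−0.89), with a median of −0.45. The naive share of the negative cells and the difference within antigen-experienced cells cannot be told apart in the first comparison. Of 11 progenitor and memory genes, 5 were lower (*Il7r*, *Tcf7*, *Slamf6*, *Id3* and *Itgb1*) and 2 higher (*Xcl1*, counted above, and *Gzmk*), with a median of −0.55. *Tcf7* (TCF-1), which keeps progenitor cells, was 81.2 CPM (65.2–99.9) against 169 (145–196), −1.06, and 62.2 against 125 CPM (−1.01) in the *Ccl5* cells. *Il7r* (CD127) was 27.4 against 71.7 CPM (−1.39). It had 12 UMIs in positive and 62 in negative *Ccl5* cells, too few for a call. After thinning *Tcf7* was −0.41 and *Slamf6* −0.33 in all CD8 T cells, and −0.72 and −0.41 in the *Ccl5* cells.

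Interferon-stimulated genes were lower as a group. Of 12 tested of 20, none had a ratio above 0, 10 were lower, and the median was −0.81. *Irf7*, which amplifies type I interferon, was 31.0 CPM (21.5–43.3) against 69.8 (54.8–87.6), −1.17, and *Isg15*, a ubiquitin-like modifier, 30.1 CPM (20.7–42.3) against 65.1 (50.6–82.4), −1.11. *Zbp1*, a sensor of nucleic acids, was 73.0 against 146 CPM and *Irf1* 120 against 183 CPM (−0.61). The interferon-induced GTPase genes *Gbp4*, *Igtp*, *Gbp7* and *Gbp2* had ratios of −0.91, −0.91, −0.82 and −0.76. In the *Ccl5* cells 5 of 7 tested were lower, with none above 0 and a median of −0.87. Without the MHC class II cells 7 of 10 were lower (median −0.73), while *Bst2* (tetherin) went from −0.80 to −0.21. After thinning, 5 of 9 were lower in all CD8 T cells (median −0.72), but 1 of 5 in the *Ccl5* cells (median −0.25), where *Zbp1* was −0.41. Of the thinned cells, 17.8% of positive and 19.9% of negative cells had a *Zbp1* UMI. For *Irf1* the shares were 19.2% and 32.9%, a difference of −13.7 points (−20.6 to −5.63).

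Promoters of 8 of these 12 genes were in the RefSeq table. The ISRE-like motif, GAAA, any 2 bases and GAAA, the core of the interferon-stimulated response element, was found in 5 of the 8 (*Bst2*, *Gbp2*, *Gbp7*, *Igtp* and *Isg15*), and in 3.99% of all 27025 genes of that table, on either strand. TTCNNNGAA, the form of the interferon-γ activated site (GAS), was in 4 (*Bst2*, *Gbp7*, *Igtp* and *Irf1*), and in 9.55% of all genes of the table. The windows of *Isg15* (chr4:156200769-156201068, minus strand) and *Igtp* (chr11:58199306-58199605, plus strand), in GRCm38.p6 and read 5′ to 3′ on the gene's strand, are shown because they hold the ISRE-like motif. Capitals mark the ISRE-like letters, which in *Isg15* are 3 overlapping matches from −78 to −57 and in *Igtp* 1 match from −34 to −25.
Isg15: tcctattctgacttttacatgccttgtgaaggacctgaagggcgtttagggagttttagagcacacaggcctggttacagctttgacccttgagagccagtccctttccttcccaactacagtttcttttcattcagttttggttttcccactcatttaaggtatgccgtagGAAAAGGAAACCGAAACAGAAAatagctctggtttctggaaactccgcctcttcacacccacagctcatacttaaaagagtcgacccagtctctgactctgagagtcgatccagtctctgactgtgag
Igtp: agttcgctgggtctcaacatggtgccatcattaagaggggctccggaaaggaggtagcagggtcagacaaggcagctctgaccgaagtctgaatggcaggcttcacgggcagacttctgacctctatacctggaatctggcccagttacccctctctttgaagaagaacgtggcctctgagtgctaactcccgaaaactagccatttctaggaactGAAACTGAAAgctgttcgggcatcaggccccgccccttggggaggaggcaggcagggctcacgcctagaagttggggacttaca
Among the 15 highest genes, 12 were in the table, and the ISRE-like motif was in 1 of them, TGANTCA in 2, TTCNNNGAA in 1, and the NF-κB-like motif, its other form GGGA, any base and TTTCC, the NR4A-like AAAGGTCA and the CRE-like TGACGTCA in none. The 8 naive genes in the table held none of the 7 motifs. These windows cover 300 bases of each gene and say nothing on distant elements.

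Receptors for homing and retention split in both directions, 4 higher and 3 lower of 13, with a median of −0.06. *Rgs16* (chr1:153740349-153745468), counted here as a regulator of chemokine receptors, was 452 CPM (414–494) against 129 (109–153), 1.81, and 99 positive against 52 negative cells of 142 had it. *Itgav*, an integrin that activates TGF-β, was 123 against 73.6 CPM (0.74), and *Cxcr6*, the receptor for CXCL16 that tissue effector cells carry, 428 against 267 CPM (0.68). After thinning these were 0.38 and 0.32, and *Rgs16* was 1.56, the 1 higher member of 11 tested, with none lower. *Itgae* (CD103; chr11:73090583-73147446), the integrin that holds CD8 T cells at E-cadherin, was the lowest gene apart from an MHC class II gene. It was 49.3 CPM (37.0–64.3) in positive and 185 CPM (160–213) in negative cells, −1.91 (−2.37 to −1.47), and was detected in 25 against 49 of 142 cells. The 90th percentile was 1 against 5 UMIs. Its partner *Itgb7* was 225 against 345 CPM (−0.62) and *Itgb1* 316 against 484 CPM (−0.62). In the *Ccl5* cells 2 of 13 members were higher and 4 lower, with a median of −0.42. There *Itgae* was −2.12 (−2.68 to −1.59) and *Itgb1* −0.70, while *Cxcr6* lay between 0.04 and 0.36 over all alternatives. After thinning, which also uses unpaired cells, the *Itgae* ratio was −0.43 in all CD8 T cells, with a UMI in 10.3% of positive and 14.1% of negative cells, and −0.88 in the *Ccl5* cells. *Ly6a* (Sca-1; chr15:74994877-74998031), a surface protein that interferon and memory differentiation raise, was 588 CPM (544–636) against 1332 (1264–1403), −1.18, with medians of 1 and 6 UMIs per cell. It stayed lower after thinning, at −0.88 and a UMI in 43.2% against 67.1% of cells.

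Outside the lists, *Kcnq5*, a potassium channel gene, was the highest gene after *Xcl1* and *Gzma*, at 136 CPM (115–160) against 32.1 (22.2–44.8), 2.08, in 45 against 18 of 142 cells. *Phactr2*, a regulator of protein phosphatase 1 and actin, was 369 CPM (334–407) against 124 (103–147), 1.58, in 99 against 68 cells. Both stayed high in the *Ccl5* cells (1.78 and 1.48). *Hivep3*, a zinc finger transcription factor, was 1.45 and *Rrp1b*, a nucleolar protein, 1.46. *Kdm6b*, a histone demethylase, was 1.42, but −0.02 after thinning. Genes among the 10 lowest in the *Ccl5* cells included *Emb*, an adhesion protein (66.9 against 162 CPM, −1.28), *Epsti1*, an interferon-responsive gene (103 against 230 CPM, −1.16), *Cmah*, of sialic acid synthesis (44.2 against 117 CPM, −1.41), and *Plac8* (56.2 against 162 CPM, −1.53, but 0.04 after thinning). *H2-Aa* and *Cd74*, which were among the 3 lowest genes of all CD8 T cells at −2.06 and −1.73, rested on the MHC class II cells. Without those cells they were −0.04 and −0.46. The 8 acinar markers had UMIs in 29 positive and 19 negative cells with at most 28 and 19 in a cell. Their summed level was 111 against 68.9 CPM. Most of it was *Prss2* (trypsinogen), the 1 member with enough UMIs, at 89.4 against 38.7 CPM. Stromal and endothelial markers had UMIs in 17 positive and 43 negative cells, endocrine markers in 7 and 6, and Treg markers without *Cd4* and *Foxp3*, which include *Ikzf2*, in 117 and 100. The Treg markers summed to 610 against 399 CPM, with 1 of 3 tested higher and a median of 0.21. In the *Ccl5* cells they summed to 501 against 333 CPM, with 2 of 3 higher and a median of 0.72. Natural killer cell markers, mostly *Gzma*, had UMIs in 15 and 16 cells. Their part in the other differences was not tested.

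Levels were next read by the number of *Tnfrsf9* UMIs in the 445 cells with 4 or more *Ccl5* UMIs, of which 333 had none, 49 had 1, 43 had 2 to 4 and 20 had 5 or more. Median depth increased along these classes, from 5372 to 5763, 7452 and 10232.5 UMIs per cell, and was not matched here. CPM is therefore compared, with shares of thinned cells for some genes. *Xcl1* was 307 CPM (283–333) at 0, 948 (844–1060) at 1, 1351 (1231–1479) at 2 to 4 and 4593 (4314–4886) at 5 or more *Tnfrsf9* UMIs, each level above the interval of the one before. The share of thinned cells with an *Xcl1* UMI was 23.6% (19.1–28.6) at 0 and 26.5% (14.9–41.1) at 1, with overlapping intervals. It was 46.5% at 2 to 4 and 75.0% at 5 or more. *Kcnq5* was 43.0, 59.2, 92.5 and 205 CPM, *Tnfrsf4* 36.1, 74.8, 92.5 and 219 CPM and *Ccl4* 1941, 2301, 2779 and 3071 CPM along the same classes, with neighboring intervals that overlapped at some steps.

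The pooled CPM of other genes was highest in cells with 1 *Tnfrsf9* UMI. *Pdcd1* was 348 CPM (322–376) at 0, 592 (511–683) at 1, 483 (413–562) at 2 to 4 and 355 (281–444) at 5 or more, with overlapping intervals at 1 and at 2 to 4 and at 0 and at 5 or more. Over all CD8 T cells, however, it was 364 CPM (297–442) at 5 or more and 237 (220–254) at 0. *Tox* was 1191, 1746, 1391 and 1062 CPM and *Ifng* 159, 343, 214 and 173 CPM. Shares of thinned cells with a UMI followed this order in part. In the *Ccl5* cells those of *Pdcd1* and *Tox* were also highest at 1. At 0, 1 and 2 to 4 they were 37.3, 61.2 and 53.5% for *Pdcd1* and 74.2, 91.8 and 79.1% for *Tox*. *Ifng* was found there in 34.7% at 1 and 39.5% at 2 to 4. Its share was lowest at 5 or more in both comparisons, at 11.5% over all CD8 T cells against 14.3% at 0, with overlapping intervals. Over all CD8 T cells *Pdcd1* was found in 47.0% at 1, 51.9% at 2 to 4 and 38.5% at 5 or more. *Tox* was found there in 62.9, 78.8, 81.5 and 84.6% from 0 to 5 or more. All of these intervals at 1 and at 2 to 4 overlapped. *Lag3* was 587 CPM at 0 and between 723 and 875 in the other classes. For *Ly6a* and *Itgae*, the largest step in pooled CPM of the *Ccl5* cells lay between 0 and 1 UMI. *Ly6a* was 1045 CPM at 0 and 499, 506 and 374 above it. *Itgae* was 148 CPM at 0 and 37.4, 40.5 and 54.7 above it. Over all CD8 T cells, however, *Ly6a* fell at each step, from 1360 to 765, 563 and 364 CPM, without overlap of neighboring intervals. Shares of thinned cells with *Itgae* did not keep the step. At 0, 1 and 2 to 4 they were 12.7, 4.08 and 14.0% in the *Ccl5* cells. Over all CD8 T cells they were 14.1, 7.58 and 16.7%, and the intervals overlapped in both. In the *Ccl5* cells *Traf1* was 124, 112, 92.5 and 169 CPM. The class of 5 or more held 20 cells, and a few of them can set its level.

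**Figure D4:**
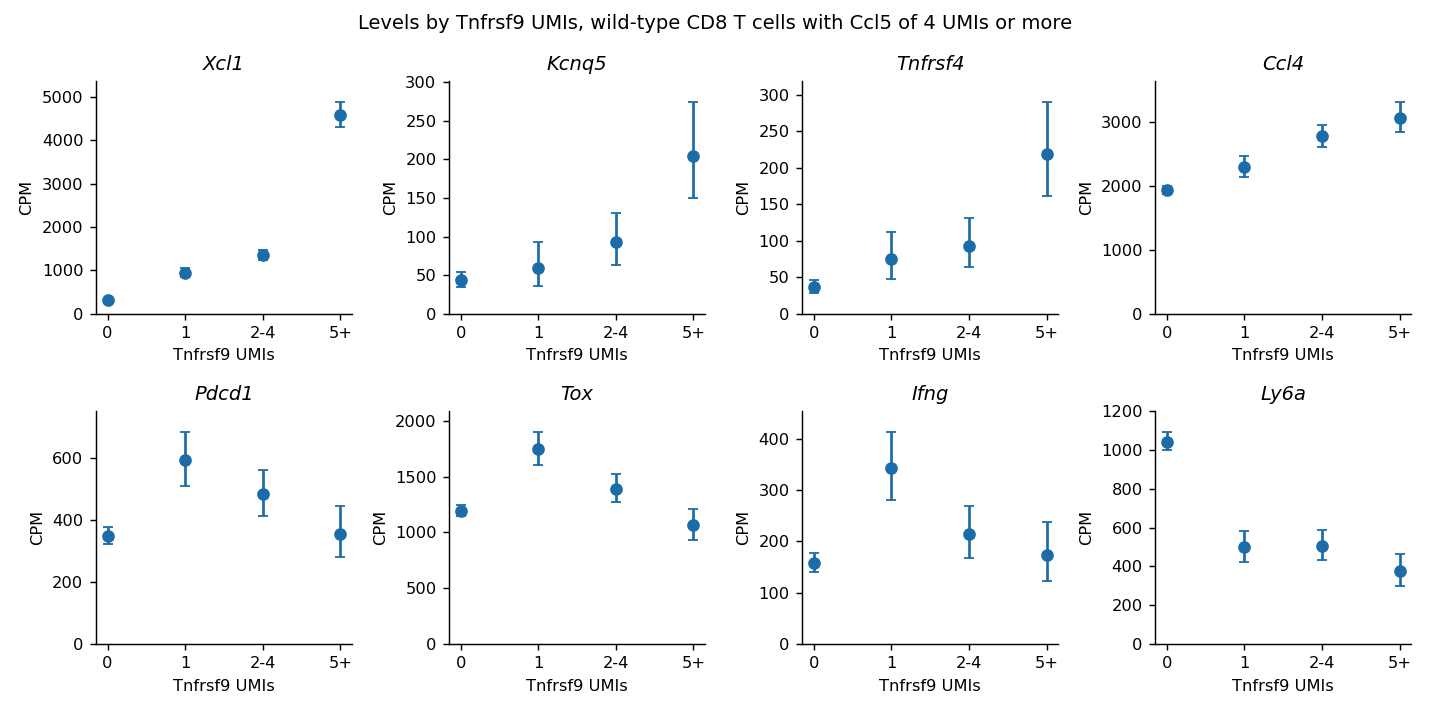
Pooled level (CPM, exact 95% Poisson intervals) of 8 genes in wild-type CD8 T cells with 4 or more *Ccl5* UMIs, by *Tnfrsf9* UMIs in the cell (0, 1, 2–4, 5 or more; 333, 49, 43 and 20 cells). *Xcl1*, *Kcnq5*, *Tnfrsf4* and *Ccl4* increase over the classes, *Pdcd1*, *Tox* and *Ifng* are highest at 1 UMI, and *Ly6a* drops from 1045 CPM at 0 to 499 CPM at 1.

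The same split was made in cells that the rule did not use. In the knockout library *Tnfrsf9* UMIs were found in 112 of 1103 CD8 T cells (10.2%; 2.76% after thinning), at 28.3 CPM against 104 CPM in wild type, and at 121 CPM in knockout Tregs against 375 CPM. The share in knockout cells with naive genes was 6.12% (2.46% after thinning), beside the 2.76% of all knockout CD8 T cells. Of the positive knockout cells 72.3% held 1 UMI, against 44.9% in wild type, so the positive sets are unlike. The kit counts 3′ ends, and the part of the gene that this knockout lacks is not given in the sources used here, so these UMIs neither test the label nor show a functional transcript. In 112 knockout pairs (medians of 7283 and 7284.5 UMIs), 162 of 2864 genes were higher (5.66%) and 83 lower (2.9%). The 5 MHC class II cells in the pairs were all in the negative set, and without them 167 of 2802 genes were higher and 68 lower, and gene values below are without them, while list counts are over all 112 pairs. In 373 wild-type Treg pairs, whose depths were less even (4791 and 4077), 225 of 5066 genes were higher (4.44%) and 131 lower (2.59%). In the 60 pairs of knockout cells with 4 or more *Ccl5* UMIs, 112 of 1590 genes were higher (7.04%) and 67 lower (4.21%), with 2 MHC class II cells kept in the negative set. The differences between populations were not tested.

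Of the 15 highest genes in wild-type CD8 T cells, 11 had enough UMIs in knockout CD8 T cells and all 11 were higher there. *Xcl1* was 1940 against 382 CPM (2.35), *Ccl4* 1.72, *Nr4a2* 1.74, *Rgs16* 1.26, *Phactr2* 1.24, *Ccl3* 1.16 and *Kcnq5* 0.92. With 4 or more *Ccl5* UMIs, 7 of 9 were higher, but of the chemokines 1 of 3: *Xcl1* was 2.34, *Ccl4* 0.39 and *Ccl3* 0.30. *Pdcd1* (1.24), *Lag3* (1.14) and *Tox* (0.95) were higher as well. None of 7 tested members of the TNF family was higher or lower in all knockout CD8 T cells. Of these 7, however, 6 were above 0, with a median of 0.32 and a largest ratio of 0.57. *Tnfrsf4* was 102 against 114 CPM (−0.16, −0.58 to 0.25) and *Tnfrsf1b* 86.9 against 78.3 CPM (0.15). In the knockout *Ccl5* cells 1 of 4 was higher, *Fas* (0.87), all 4 were above 0, and the median was 0.34. The biosynthesis genes were also without a member past 1.5-fold of 18 tested (median 0.13), with *Eif5a* at 0.10 and *Ncl* at −0.07, although *Odc1* was 0.64 without the MHC class II cells. In the knockout *Ccl5* cells, though, 6 of 16 were higher and all 16 above 0, with a median of 0.44, beside 4 of 17 and 0.40 in wild type. *Itgae* was 163 against 158 CPM (0.05), and 2 of 11 interferon-stimulated genes were lower before the MHC class II cells were left out. *Ly6a* was lower at 581 against 966 CPM (−0.73).

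In Tregs 6 of 11 of the highest CD8 genes with enough UMIs were higher, among them *Ccl4* (494 against 213 CPM, 1.21), *Rbpj*, which is not among those 15, was 1.05, and *Tnfrsf4* (1972 against 861 CPM, 1.19) and *Tnfrsf1b* (0.96) were higher from levels above those of CD8 T cells. TRAF and NF-κB genes, which were level in CD8 T cells, were higher for 8 of 23 in Tregs (median 0.33), including *Nfkb1* (348 against 229 CPM, 0.60) and *Relb* (156 against 89.1 CPM, 0.81). *Itgae* and *Ly6a* took the opposite direction, at 376 against 230 CPM (0.71) and 2980 against 1890 CPM (0.66). *Nr4a1*, too low in CD8 T cells, was 167 against 51.2 CPM (1.70). *Xcl1* had too few UMIs in Tregs, 33.0 against 5.01 CPM.

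**Figure D5:**
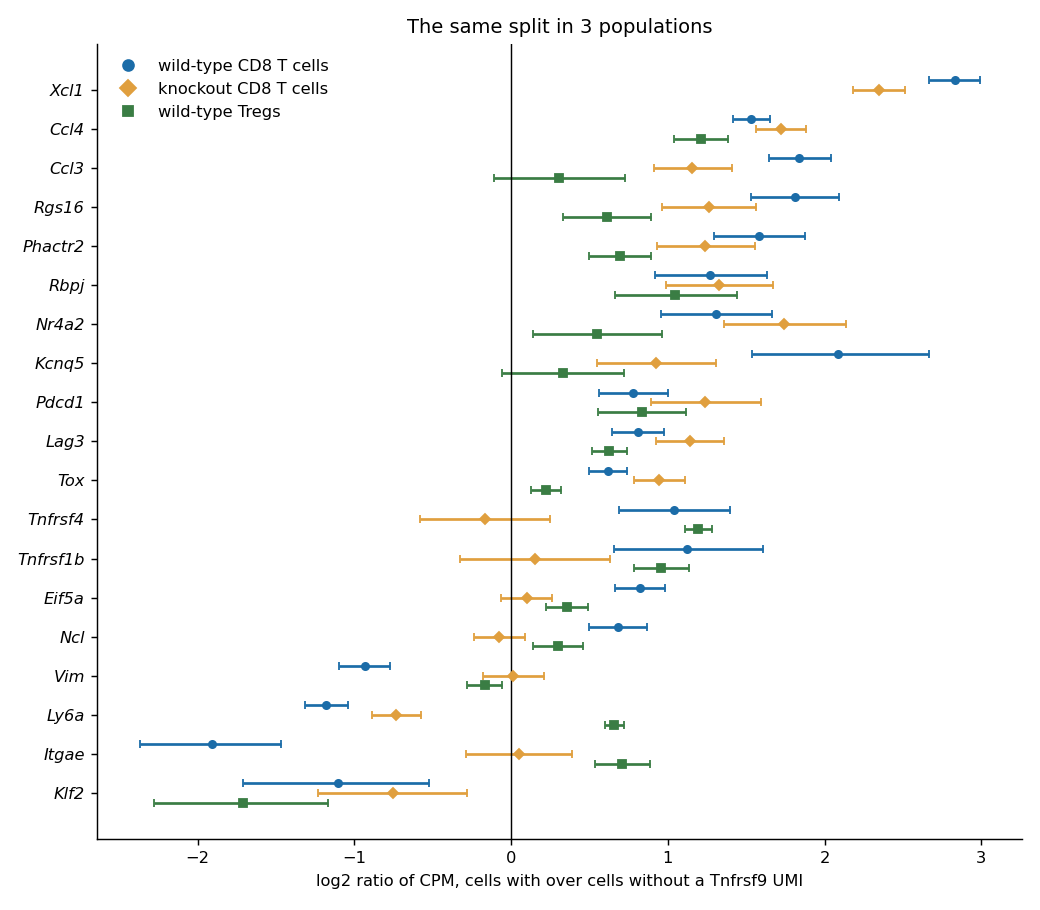
Log2 ratio of CPM, cells with over cells without a *Tnfrsf9* UMI, in paired wild-type CD8 T cells (circles), knockout CD8 T cells without MHC class II cells (diamonds) and wild-type Tregs (squares), with exact 95% counting intervals; genes below 100 UMIs have no point. *Xcl1* is at 2.83 in wild-type and 2.35 in knockout CD8 T cells, *Tnfrsf4* at 1.04, −0.16 and 1.19 and *Itgae* at −1.91, 0.05 and 0.71.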

How the data were processed

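Droplet 3′ single-cell RNA libraries of sorted islet T cells were analysed, 1 per genotype. The authors deposited counts, the UMIs of each of 27998 genes in each barcode, not normalized. The submitters' processing notes name Cell Ranger 7.0.0 and mm10 (GRCm38). Whether intronic reads were counted is not given in the sources used here. No doublet caller was run and no doublets were removed. The members and the 30 gene lists were chosen with earlier results of these data known.

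UMIs were summed over paired positive and negative cells (optimal 1:1 assignment on total UMIs, difference at most 0.25 on the log2 scale) and divided by the summed totals to give CPM. Intervals were exact Poisson for CPM, exact binomial for shares, exact conditional for ratios and Newcombe for differences of thinned shares, all at 95%. Genes needed 100 UMIs in both sets together, and higher or lower means a ratio of at least 1.5. Total UMIs per library and per cell set this precision, and UMIs of 1 cell are not independent of each other. No test was run, since each group has 1 library. Named were the 15 highest and 10 lowest genes of each comparison without *Tnfrsf9* and the genes of the rule, the members of each list past 1.5-fold with the largest size, and CD8 cluster genes that the study's text names. Other genes were named after their values were seen, and a few genes are not reported here. Alternatives were thinning to 2000 UMIs, no depth correction, pairing within 0.1, a positive limit of 2 UMIs, 500 to 4000 genes with at most 10% mitochondrial UMIs, no limit on proliferation genes, *Ccl5* of 10 or more, equal weight per cell, centring on the median and a minimum of 20 UMIs. Leaving out MHC class II cells, or the top cell of each gene, was added after the data were seen. Symbols of *Trac*, *Trbc1*, *Trbc2* and *Ighm* were not matched. Promoter sequences came from RefSeq (GRCm38.p6). Scripts were tested on simulated data and used Python 3.11.15 with numpy 2.4.6, scipy 1.17.1, pandas 2.3.3 and matplotlib 3.10.9.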

Additional observations from a re-analysis of the deposited data

Results flagged for a closer look

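In 3 genes the ratio of cells with over cells without *Tnfrsf9* UMIs passed 1.5-fold in opposite directions in wild-type CD8 T cells and wild-type Tregs, with both counting intervals clear of 0. The log2 ratio was 0.71 in Tregs and −1.91 in CD8 T cells for *Itgae*, 0.66 and −1.18 for *Ly6a*, and 0.79 and −1.73 for *Cd74*. The differences between the populations were not tested, since each has 1 library. The *Cd74* ratio of CD8 T cells was −0.46 without the MHC class II cells, and the *Itgae* ratio was −0.43 after thinning.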

How the results depend on the processing

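No paired analysis was possible because each genotype has 1 library. The share of positive CD8 T cells, 20.7%, was 11.1% after thinning to 2000 UMIs, 11.4% with a limit of 2 *Tnfrsf9* UMIs and 26.9% without the limit on proliferation genes. Without a correction for depth, 356 genes were higher and 369 lower in all CD8 T cells and 291 were lower in the *Ccl5* cells. With a minimum of 20 UMIs the counts were 921 and 753 in all CD8 T cells and 825 and 731 in the *Ccl5* cells, where thinning gave 67 higher genes and no proliferation limit 142 lower ones. The other 35 of 47 recomputed shares and counts stayed within their interval or 1.5 times the count. Of 483 list medians 394 moved by less than 0.2 on the log2 scale, and of 4739 ratios of single genes 4215 stayed within their counting interval. Among values past 1.5-fold, signs reversed after thinning for *Kdm6b* (−0.020), *Nrn1* (−0.32), *Stmn1* (0.043), *Tyrobp* (0.25) and the myeloid median (0.11) in all CD8 T cells and for *Plac8* (0.038), *Odc1* (−0.024) and *Cd74* (0.61) in the *Ccl5* cells. Smaller medians turned too in all CD8 T cells, from −0.12 to 0.16 for S100, annexin and galectin genes, from −0.06 to 0.12 for homing receptors and from 0.08 to −0.33 for cytokine receptors. *Cd74* in the *Ccl5* cells was 2.54 with the stricter cell limits and 0.32 without the top cell of each set. Without a depth correction *Stmn1* was 0.53 in all CD8 T cells and 0.16 in the *Ccl5* cells, and the myeloid median 0.019. The secreted cytokine median was −0.18 with 2 *Tnfrsf9* UMIs. The causes were not tested. Depth limits genes such as *Egr2*, *Nr4a1* and *Irf4*, which have under 100 UMIs in the paired cells.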
